A study of Mus musculus with 13 samples.

Results

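A group of 9 genes that mark the choroid plexus and the ependyma were followed across 13 RNA-seq libraries of mouse brain. The 9 genes were Ttr, Folr1, Kl, Sostdc1, Clic6, Kcne2, Prlr, Aqp1 and Foxj1, taken by symbol from a table of 37636 genes, and each symbol matched 1 row. The first 8 mark choroid plexus epithelium and Foxj1 marks ciliated cells, of which ependyma is the main kind in brain. The libraries came from the brains of male Balb/c mice aged 6 to 8 weeks. The 4 6-OHG libraries came from mice under stress at 8000 m for 24 h that were given 6-OHG, an agent the labels name only in that form and with no dose. The 5 Mod libraries came from mice under the same 8000 m stress for 24 h with no 6-OHG. The 4 Con libraries came from mice kept in the normal condition with no 6-OHG. The labels do not say how the altitude was produced, which region of the brain was taken or whether each library was a separate animal, so each p-value here reflects the spread among libraries, which may be technical.

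The choroid plexus is a folded epithelium inside the brain ventricles that secretes most of the cerebrospinal fluid and carries hormones, vitamins and ions between blood and that fluid. Ependymal cells line the ventricles and beat motile cilia that move the fluid. Both tissues are small, so a piece of brain can hold much or little of them. In bulk RNA, fewer cells of a type and less RNA per cell cannot be told apart.

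Levels are FPKM, fragments scaled to gene length and to the mapped fragments of the library, as the authors deposited them. The FPKM of a library summed to between 268208 and 312908, of which 20.6% to 28.7% came from mitochondrial genes. Differences are of mean log2(FPKM + 1), which understates the change of genes at low levels. A gene was called where the adjusted p from limma was under 0.05. Ttr, Sostdc1, Clic6 and Foxj1 were tested among 13905 genes that averaged 1 FPKM or more. Folr1, Kl, Kcne2, Prlr and Aqp1 lie below that mean and were tested among 21902 genes that averaged 0.1 FPKM or more. Sostdc1 reached 1 FPKM only through its level in Con, so its values below are from the 21902 genes too, and among the 13905 its adjusted p was 0.00487 for Mod minus Con and 0.00809 for 6-OHG minus Con.

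Several libraries stood apart in their content of other tissues. The liver gene Alb, which encodes serum albumin, was at 0.0198 to 0.113 FPKM in 6-OHG, at 0.195 FPKM or less in 4 Mod libraries and 14.4 FPKM in Mod 3, and at 14.3 to 18.9 FPKM in Con. Over 31 liver genes without Ttr, the summed level was 68.5 to 123 FPKM in 6-OHG, 94.9 to 191 FPKM in Mod and 192 to 268 FPKM in Con. Of the 14 liver genes tested that averaged 1 FPKM or more, Ttr among them, 10 were lower and 1 was higher in Mod than in Con, and 11 were lower and 1 was higher in 6-OHG than in Con. Over all genes in that range, 9.81% were called lower and 14.0% higher in the first comparison, and 14.4% and 16.3% in the second. Of the 14, 8 averaged under 1 FPKM in 6-OHG and in Mod without Mod 3, so they reached that range through Con and Mod 3. With 0.1 FPKM as the minimum, 24 of 30 liver genes were lower in Mod and 27 of 30 in 6-OHG, each against Con, and 1 was higher in each. Over all genes in that range, 6.52% and 9.83% were called lower. In each 6-OHG library 10 to 12 liver genes were at 0, and none was at 0 in any Con library. Liver genes could thus reach the minimum through Con, which favours lower calls. Pituitary genes summed to at most 2.85 FPKM in every library but Con 4, which had 24.5 FPKM. Hypothalamic genes summed to 19.9 to 82.6 FPKM in 6-OHG, 128 to 165 FPKM in Mod and 54.0 to 122 FPKM in Con, and the part of that content in the results was not tested. Kidney also expresses several of the 9 genes. Its list summed to 18.2 to 32.9 FPKM, and the lowest and the highest were both 6-OHG libraries. Of 11 kidney genes, only 1 averaged 1 FPKM or more and 5 averaged 0.1 FPKM or more. Calb1 of that list is a cerebellum marker too, so the sum cannot show whether kidney RNA was present.

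Sostdc1, Kl and Aqp1 were lower in Mod than in Con, and Sostdc1, Kl and Foxj1 were lower in 6-OHG than in Con. None of the 9 passed the test between 6-OHG and Mod. Ttr had the highest level of the 9 and by far the widest spread between libraries, and its differences did not pass the test.

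Ttr (ENSMUSG00000061808, chromosome 18, 20665280 to 20674321, plus strand) encodes transthyretin, the carrier of thyroxine and of retinol-binding protein that choroid plexus epithelium secretes into the fluid. Liver makes it too. Ttr had 43.8, 1.67, 299 and 353 FPKM in 6-OHG libraries 1 to 4, 215, 243, 247, 43.5 and 239 FPKM in Mod libraries 1 to 5, and 330, 686, 317 and 275 FPKM in Con libraries 1 to 4. Every Mod library lay below every Con library, while 6-OHG overlapped both. Within a group, the highest library exceeded the lowest 212-fold in 6-OHG, 5.67-fold in Mod and 2.5-fold in Con. The mean in Mod was 0.491 times that in Con. The log2 difference was −1.15 ± 1.15 (SE) for Mod minus Con, with an adjusted p of 0.51. It was −1.51 ± 1.15 for 6-OHG minus Mod (adjusted p = 0.411) and −2.66 ± 1.21 for 6-OHG minus Con (adjusted p = 0.113). Single libraries moved these values. Leaving out 1 library gave −3.51 to −1.16 for 6-OHG minus Con, with −3.51 without 6-OHG 4 (adjusted p = 0.048) and −1.16 without 6-OHG 2 (adjusted p = 0.254). It gave −2.36 (without 6-OHG 4) to −0.01 (without 6-OHG 2) for 6-OHG minus Mod. For Mod minus Con it gave −1.30 to −0.67, the last without Mod 4. Mod 3, with as much Alb as a Con library, had 247 FPKM of Ttr, close to the 215 to 243 FPKM of Mod 1, 2 and 5.

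**Figure D1:**
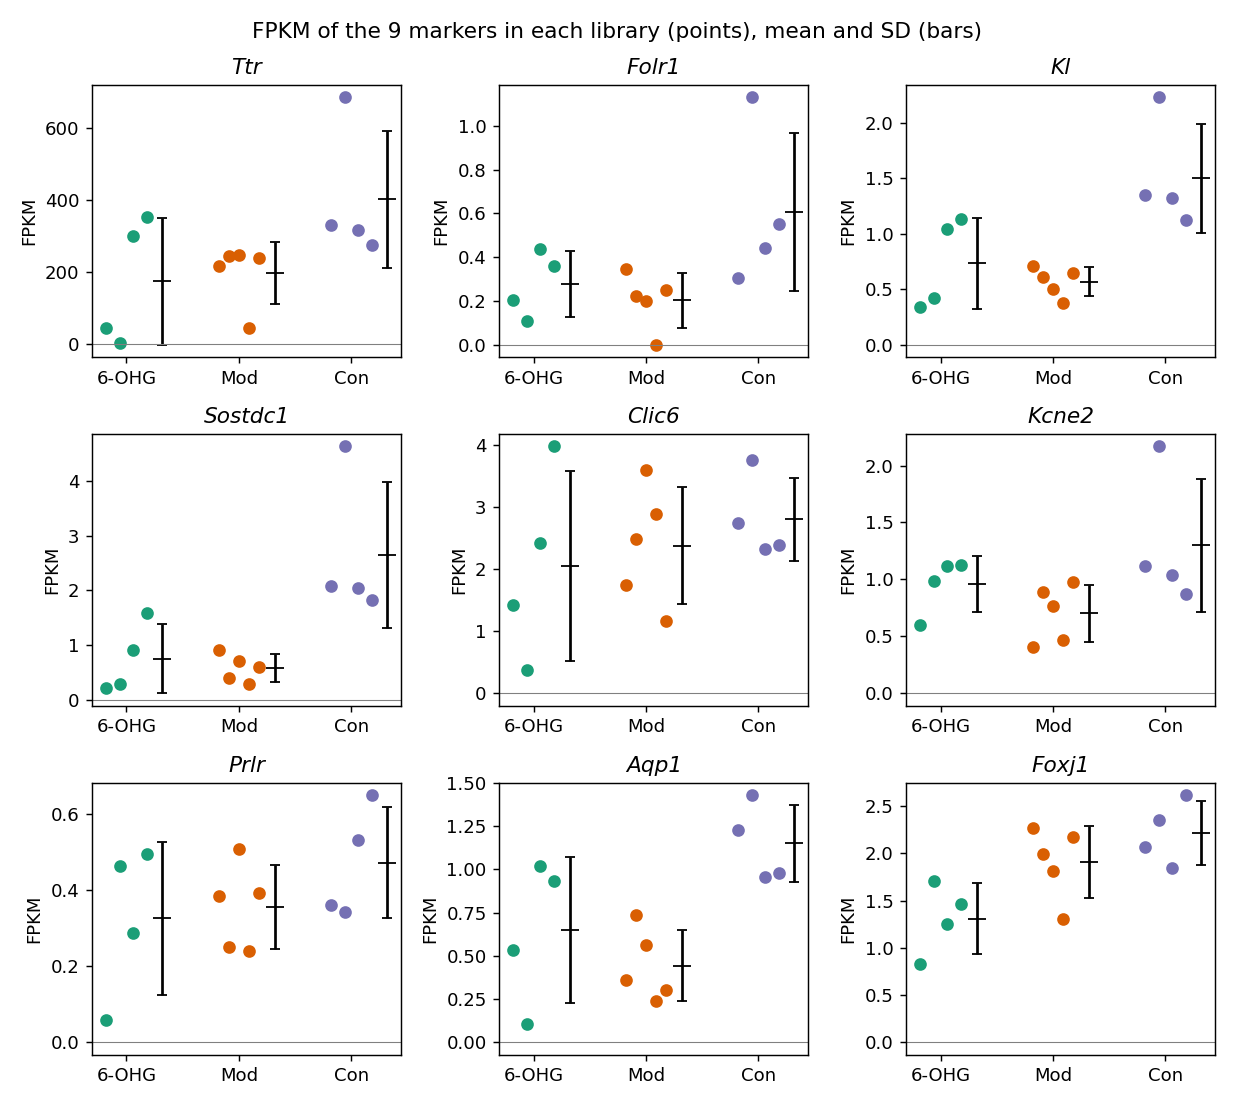
FPKM (vertical axes, linear) of the 9 genes in every library (points, in order of replicate number) of the 6-OHG, Mod and Con groups, with the group mean and SD beside the points. All 5 Mod points of Ttr, Kl, Sostdc1 and Aqp1 lie below the 4 Con points, and Con 2 is the highest of the Con libraries in 7 of the 9 panels.

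Sostdc1 (ENSMUSG00000036169, chromosome 12, 36314139 to 36318452, plus strand) encodes a secreted antagonist of BMP and WNT signalling. Its levels were 0.226, 0.303, 0.906 and 1.59 FPKM in 6-OHG libraries, 0.919, 0.408, 0.712, 0.287 and 0.614 FPKM in Mod libraries, and 2.08, 4.63, 2.04 and 1.83 FPKM in Con libraries. All 9 libraries from 8000 m lay below the lowest Con library. The mean in Mod was 0.222 times that in Con, and the mean in 6-OHG was 0.286 times that in Con. Sostdc1 fell in Mod relative to Con by 1.15 ± 0.24 (SE) on the log2 scale (adjusted p = 0.00614), and in 6-OHG relative to Con by 1.06 ± 0.25 (adjusted p = 0.01). Between 6-OHG and Mod the difference was 0.09 ± 0.24 (adjusted p = 0.87). Leaving out any 1 of the 13 libraries kept both calls, with adjusted p up to 0.0168 for Mod and up to 0.0322 for 6-OHG. Mod 3, the Mod library rich in liver RNA, had 0.712 FPKM, within the 0.287 to 0.919 FPKM of the other Mod libraries. The same library lay inside the range of the other Mod libraries for Kl and Aqp1 too, at 0.499 and 0.565 FPKM.

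Kl (ENSMUSG00000058488, chromosome 5, 150952607 to 150993817, plus strand) encodes klotho, a membrane protein that is shed and that serves as the co-receptor of FGF23. Its levels were 0.340, 0.421, 1.04 and 1.13 FPKM in 6-OHG libraries, 0.713, 0.613, 0.499, 0.378 and 0.644 FPKM in Mod libraries, and 1.35, 2.23, 1.32 and 1.12 FPKM in Con libraries. Mod lay wholly below Con, while the highest 6-OHG library, at 1.13 FPKM, just overlapped the lowest Con library, at 1.12 FPKM. The log2 difference was −0.66 ± 0.16 for Mod minus Con (adjusted p = 0.0121) and −0.54 ± 0.16 for 6-OHG minus Con (adjusted p = 0.0312). The Mod call held in all 13 fits that left out 1 library, and was lost with the replicate number as a block (adjusted p = 0.06). The 6-OHG call was lost without 6-OHG 1, 6-OHG 2, Con 1 or Con 2, with adjusted p of 0.0917, 0.0779, 0.0523 and 0.0877. Of the other settings, 2 kept the 6-OHG call and 6 lost it, among them the Ttr, choroid plexus and liver terms described below. Between 6-OHG and Mod the difference was 0.12 ± 0.16 (adjusted p = 0.717).

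A further 3 members carry water and ions. Aqp1 (ENSMUSG00000004655, chromosome 6, 55336432 to 55348555, plus strand) encodes aquaporin 1, the water channel of the apical choroid plexus membrane. Its levels were 0.536, 0.104, 1.02 and 0.931 FPKM in 6-OHG libraries, 0.362, 0.738, 0.565, 0.241 and 0.304 FPKM in Mod libraries, and 1.23, 1.43, 0.956 and 0.980 FPKM in Con libraries. All Mod libraries lay below all Con libraries, while the 6-OHG libraries spanned the range from below Mod into Con. The log2 difference for Mod minus Con was −0.58 ± 0.16 (adjusted p = 0.0276), and the mean in Mod was 0.384 times that in Con. This call was lost without Mod 1, Mod 4, Mod 5, Con 1 or Con 2, with adjusted p of 0.0565, 0.0638, 0.059, 0.0693 and 0.0788. It was also lost with 0.1 in place of 1 added to each FPKM (−1.27, adjusted p = 0.0649) and with no filter on low genes (adjusted p = 0.0669). With the replicate number as a block it was lost too (adjusted p = 0.122). The difference was −0.42 ± 0.17 for 6-OHG minus Con (adjusted p = 0.101) and 0.17 ± 0.16 for 6-OHG minus Mod (adjusted p = 0.606).

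Kcne2 (ENSMUSG00000039672, chromosome 16, 92292389 to 92298129, plus strand) encodes an accessory subunit of voltage-gated potassium channels. It had 0.603, 0.984, 1.12 and 1.13 FPKM in 6-OHG libraries, 0.406, 0.887, 0.771, 0.469 and 0.980 FPKM in Mod libraries, and 1.12, 2.17, 1.04 and 0.877 FPKM in Con libraries. The groups overlapped. The log2 difference was −0.42 ± 0.16 for Mod minus Con (adjusted p = 0.0887), −0.21 ± 0.17 for 6-OHG minus Con (adjusted p = 0.397) and 0.21 ± 0.16 for 6-OHG minus Mod (adjusted p = 0.479).

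Clic6 (ENSMUSG00000022949, chromosome 16, 92485736 to 92541243, plus strand) encodes a member of the chloride intracellular channel family and starts 187606 bases after the end of Kcne2. It had 1.42, 0.377, 2.42 and 3.98 FPKM in 6-OHG libraries, 1.75, 2.49, 3.59, 2.89 and 1.17 FPKM in Mod libraries, and 2.74, 3.75, 2.33 and 2.39 FPKM in Con libraries. The highest value of all was in 6-OHG 4 and the lowest in 6-OHG 2, so the spread inside 6-OHG covered the other groups. The log2 difference was −0.20 ± 0.31 for Mod minus Con (adjusted p = 0.689), −0.25 ± 0.31 for 6-OHG minus Mod (adjusted p = 0.637) and −0.45 ± 0.33 for 6-OHG minus Con (adjusted p = 0.318).

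A pair of members are receptors. Folr1 (ENSMUSG00000001827, chromosome 7, 101858331 to 101870788, minus strand) encodes folate receptor alpha, which takes folate across the choroid plexus. Folr1 had 0.202, 0.106, 0.437 and 0.361 FPKM in 6-OHG libraries, 0.345, 0.222, 0.199, 0 and 0.249 FPKM in Mod libraries, and 0.303, 1.13, 0.443 and 0.550 FPKM in Con libraries. It was listed at 0 in Mod 4, and Mod 1 was above Con 1, so the groups overlapped. The log2 difference was −0.40 ± 0.13 for Mod minus Con (adjusted p = 0.06), −0.31 ± 0.14 for 6-OHG minus Con (adjusted p = 0.13) and 0.08 ± 0.13 for 6-OHG minus Mod (adjusted p = 0.767). Without Con 1, the lowest Con library, the Mod difference was −0.49 with an adjusted p of 0.0368, and without Con 2, the highest, it was −0.25 with an adjusted p of 0.156.

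Prlr (ENSMUSG00000005268, chromosome 15, 10177238 to 10349180, plus strand) encodes the prolactin receptor. It had 0.0581, 0.462, 0.287 and 0.494 FPKM in 6-OHG libraries, 0.385, 0.251, 0.508, 0.239 and 0.391 FPKM in Mod libraries, and 0.361, 0.342, 0.532 and 0.649 FPKM in Con libraries. The 3 groups overlapped throughout. The log2 difference was −0.12 ± 0.11 for Mod minus Con (adjusted p = 0.504), −0.16 ± 0.11 for 6-OHG minus Con (adjusted p = 0.345) and −0.04 ± 0.11 for 6-OHG minus Mod (adjusted p = 0.868).

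Foxj1 (ENSMUSG00000034227, chromosome 11, 116330704 to 116335399, minus strand) encodes the transcription factor that switches on the motile cilia programme. It had 0.829, 1.71, 1.25 and 1.47 FPKM in 6-OHG libraries, 2.27, 1.99, 1.81, 1.31 and 2.17 FPKM in Mod libraries, and 2.07, 2.35, 1.85 and 2.62 FPKM in Con libraries. Every 6-OHG library lay below every Con library, and 4 of the 5 Mod libraries lay above every 6-OHG library. Among the 13905 genes, Foxj1 fell in 6-OHG relative to Con by 0.49 ± 0.14 on the log2 scale (adjusted p = 0.0165). There, leaving out any 1 library kept that call, with adjusted p up to 0.0479. Among the 21902 genes its adjusted p was 0.0214. Only 10 of the 13 fits that left out 1 library kept the call there, with adjusted p up to 0.0609. The call was lost after a trend with gene length and GC was removed, at −0.36 (adjusted p = 0.062), and with the level of other ependyma genes as a term, at −0.33 (adjusted p = 0.19). With the choroid plexus term described below it was −0.10 (adjusted p = 0.592). The difference was −0.33 ± 0.13 for 6-OHG minus Mod (adjusted p = 0.0977) and −0.15 ± 0.13 for Mod minus Con (adjusted p = 0.424). Without Mod 4, the lowest Mod library, the difference between 6-OHG and Mod was −0.41 with an adjusted p of 0.0377. Among the 21902 genes no fit that left out 1 library called it, and the lowest adjusted p was 0.0553.

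With all 9 members tested among the 21902 genes, 3 were called lower in Mod than in Con, where 6.52% of all genes tested were called lower and 16.2% in either direction. The 4 members Ttr, Kl, Sostdc1 and Aqp1 did not overlap between Mod and Con, against 6.78% of all genes for that direction. In 6-OHG against Con, 3 members were called lower, where 9.83% of all genes were called lower and 22.2% in either direction. Sostdc1 and Foxj1 did not overlap there, against 9.82% of all genes. In 6-OHG against Mod, limma called 0 of the 9, where 8.35% of all genes were called, and 1 of the 9, Foxj1, had an unadjusted p under 0.05. All 9 differences were below 0 in Mod minus Con, against 45.8% of all genes, with a median of −0.42 over the members and 0.02 over all genes tested. All 9 were also below 0 in 6-OHG minus Con, against 46.7% of all genes, with a median of −0.45 over the members and 0.02 over all genes. In 6-OHG minus Mod, 4 were below 0 and 5 above it, where 52.2% of all genes were below 0, with a median of 0.08 over the members and −0.01 over all genes. The 3 comparisons share libraries in pairs, so they are not separate evidence.

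**Figure D2:**
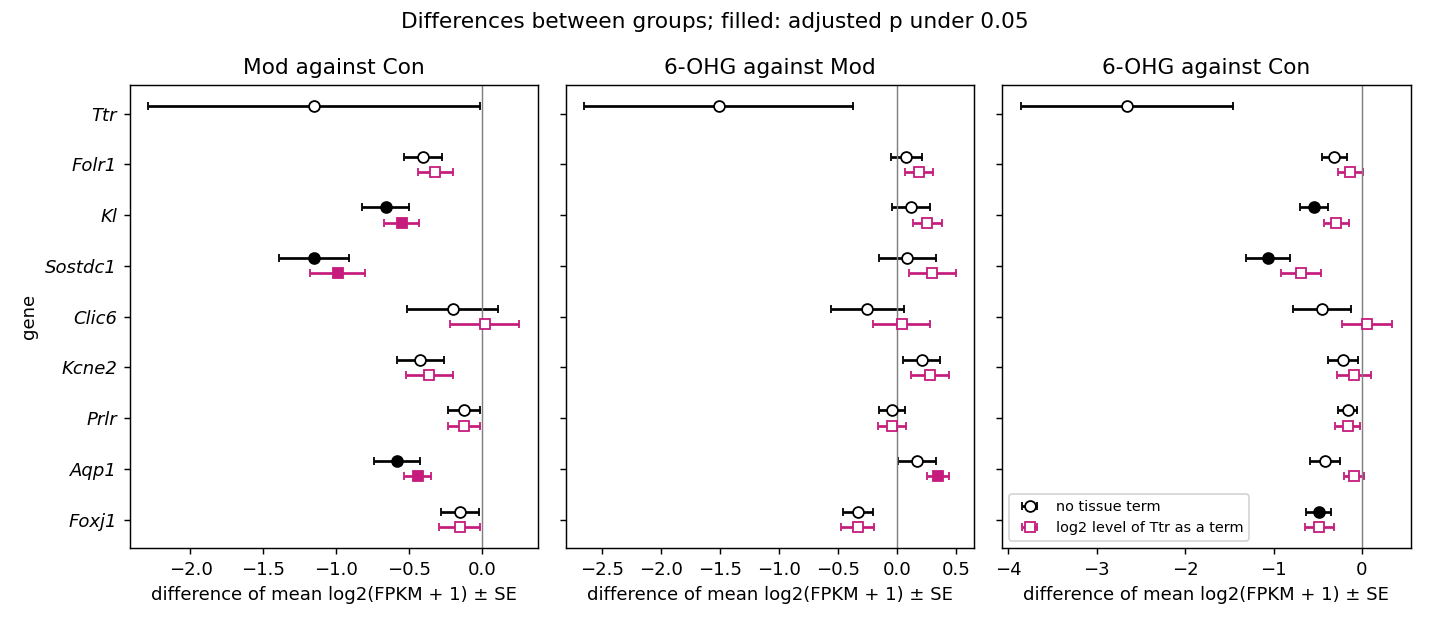
Difference of mean log2(FPKM + 1) ± SE (horizontal axes, each panel with its own range) for the 9 genes in the 3 comparisons, without a tissue term (circles) and with the log2 level of Ttr in the library as a term (squares, absent for Ttr itself). Filled symbols have an adjusted p under 0.05, and Sostdc1, Kl and Aqp1 in Mod against Con are filled in both fits.

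The change between groups was set against the spread of tissue content in 3 ways. First, the level of Ttr in each library was added to the fit as a term, a choice made after the data had been seen. In Mod against Con the 3 calls stayed, with differences of −0.99 ± 0.19 for Sostdc1 (adjusted p = 0.0057), −0.55 ± 0.12 for Kl (adjusted p = 0.00952) and −0.44 ± 0.09 for Aqp1 (adjusted p = 0.00682). In 6-OHG against Con none stayed called: Sostdc1 was at −0.69 ± 0.23 (adjusted p = 0.0663), Foxj1 at −0.48 ± 0.16 (adjusted p = 0.0705) and Kl at −0.29 ± 0.14 (adjusted p = 0.196). In 6-OHG against Mod, Aqp1 was called higher with this term, at 0.35 ± 0.09 (adjusted p = 0.0379). The libraries 6-OHG 1, 6-OHG 2 and Mod 4 had the least Ttr, at 43.8, 1.67 and 43.5 FPKM. For each gene the fit uses the same slope on Ttr in all groups, and libraries so far from the rest weigh heavily on it. The term may thus take out too little of the tissue content, which was not tested, so a kept call does not show a difference apart from that content.

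Second, the mean log2 level of the other choroid plexus genes was used as the term. No member was then called in Mod against Con or in 6-OHG against Con, and in the first Sostdc1 was at −0.68 ± 0.31 (adjusted p = 0.212) and Kl at −0.40 ± 0.21 (adjusted p = 0.276). Aqp1 was at −0.55 ± 0.24 (adjusted p = 0.204), against −0.58 ± 0.16 without the term, close in size but with a wider error. Foxj1 was called in 6-OHG against Mod, at −0.34 ± 0.08 (adjusted p = 0.0197). Last, with the liver level as the term no member was called in any comparison. Sostdc1 was then at −1.03 ± 0.42 (adjusted p = 0.285) and Kl at −0.71 ± 0.27 (adjusted p = 0.25) in Mod against Con, close in size to the differences without the term but with wider errors. The choroid plexus list summed to at least 137 FPKM in Con, and to at most 115 FPKM in Mod and 131 FPKM in 6-OHG. Liver sums were at least 192 FPKM in Con, and at most 191 FPKM in Mod and 123 FPKM in 6-OHG. Both terms thus nearly follow the difference from Con, so a call lost with them cannot tell tissue content from group.

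The ratio of each member to Ttr was also taken in every library. Per 100 FPKM of Ttr, Sostdc1 stood at 0.516, 18.2, 0.303 and 0.451 FPKM in 6-OHG libraries, 0.428, 0.168, 0.289, 0.661 and 0.257 FPKM in Mod libraries, and 0.63, 0.676, 0.645 and 0.667 FPKM in Con libraries. The Con libraries lay within a narrow band although their Ttr ranged from 275 to 686 FPKM. Below that band lay 3 of the 4 6-OHG libraries and 4 of the 5 Mod libraries. The library 6-OHG 2, with 1.67 FPKM of Ttr, lay far above it, and Mod 4 lay within it. Kcne2 per 100 FPKM of Ttr was as narrow in Con, at 0.316 to 0.339 FPKM, but spanned 0.32 to 59.0 FPKM in 6-OHG and 0.189 to 1.08 FPKM in Mod. Kl per 100 FPKM of Ttr was 0.321 to 25.3 FPKM in 6-OHG, 0.202 to 0.868 FPKM in Mod and 0.325 to 0.416 FPKM in Con. Aqp1 per 100 FPKM of Ttr was 0.264 to 6.22 FPKM in 6-OHG, 0.127 to 0.554 FPKM in Mod and 0.208 to 0.374 FPKM in Con, with all groups overlapping.

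**Figure D3:**
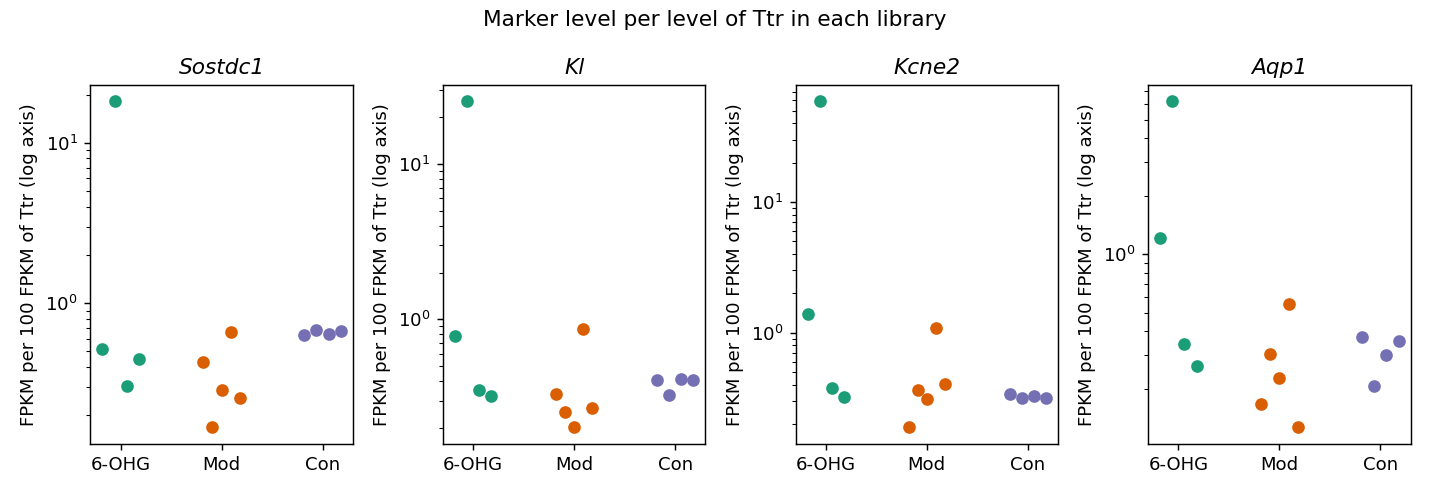
FPKM of Sostdc1, Kl, Kcne2 and Aqp1 per 100 FPKM of Ttr in each library (points, log axes) of the 6-OHG, Mod and Con groups. The 4 Con points of Sostdc1 lie between 0.63 and 0.676, and the isolated high point of each panel is 6-OHG 2.

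The members also varied together inside groups. Within-group SDs of log2(FPKM + 1) were 1.95 for Ttr, 0.52 for Clic6, 0.40 for Sostdc1, 0.27 for Aqp1, 0.25 for Kcne2, 0.25 for Kl, 0.22 for Folr1, 0.20 for Foxj1 and 0.17 for Prlr, against a median of 0.14 over all 21902 genes. Of those genes, 1 had a larger SD than Ttr, which ranked 70th by mean FPKM. Con 2 was the highest Con library for 7 of the 9 members, all but Prlr and Foxj1, and its level exceeded the mean of the other 3 Con libraries 2.61-fold for Folr1, 2.33-fold for Sostdc1, 2.23-fold for Ttr and 2.14-fold for Kcne2. Mod 4 was the lowest Mod library for 7 of the 9. Among 6-OHG libraries, 6-OHG 1 was lowest for 5 members, 6-OHG 2 was lowest for the other 4, and 6-OHG 4 was highest for 6. Against the other 3 Con libraries alone, the mean in Mod was 0.296 times for Sostdc1, 0.45 times for Kl, 0.418 times for Aqp1 and 0.642 times for Ttr.

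**Figure D4:**
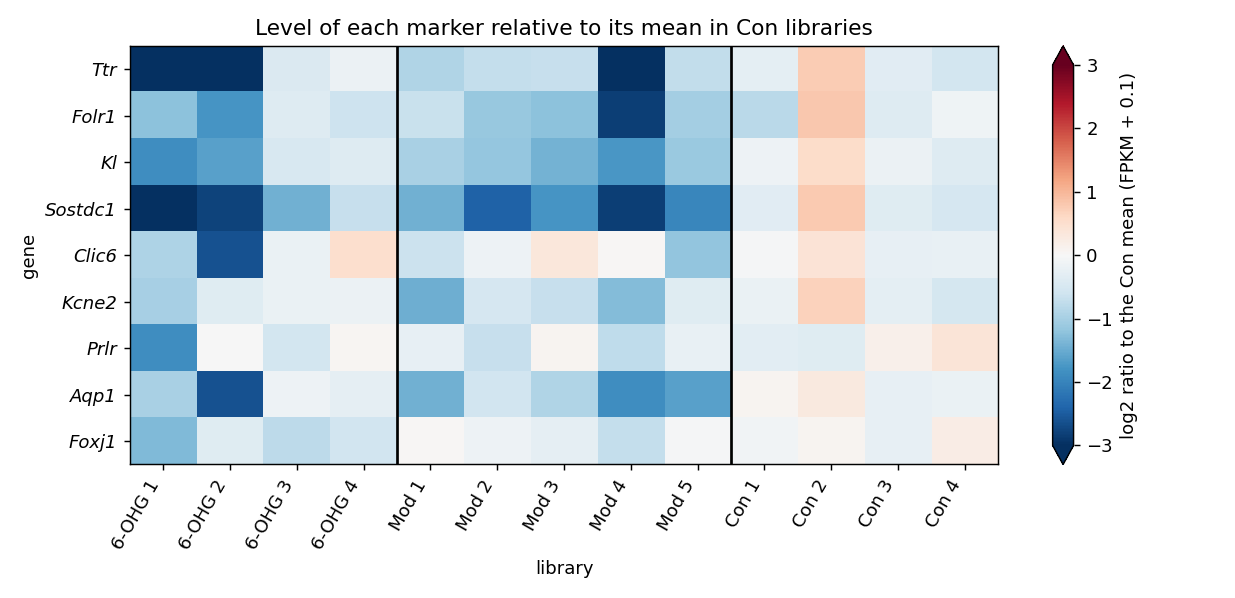
Level of each gene (rows) in each library (columns, 6-OHG, Mod and Con from left to right, divided by lines) as the log2 ratio to its mean in Con, with 0.1 added to each FPKM and colours cut at 3 in either direction. Con 2 is red in most rows, and 6-OHG 1, 6-OHG 2 and Mod 4 are the bluest columns.

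Deviations from the group means were correlated over the 13 libraries, as a description. Among the 21 pairs of the 7 members without Prlr and Foxj1, Pearson's r ranged from 0.25 for Clic6 with Kcne2 to 0.94 for Kl with Sostdc1, with a median of 0.64. Without 6-OHG 2 the median was 0.66. Prlr had a median r of 0.02 with those 7 members, and 0.22 without 6-OHG 2. Foxj1 had a median r of 0.34 with them, and 0.52 without 6-OHG 2. Prlr and Foxj1 had an r of 0.66 with each other. All genes of a library come from the same tissue, so its make-up enters every pair. The 10 genes outside the list whose deviations were most like the mean of the 8 choroid plexus members were Fam102a, Ipo9, Trib2, Tmem258, 1500015O10Rik, Pex6, Enpp2, Senp3, Zfhx2 and Zc3h7b, with r from 0.83 to 0.87 over 13 libraries. Without 6-OHG 2 their r was 0.72 to 0.91. Deviations were averaged unscaled, so Ttr, with an SD of 1.95, dominates that mean, and the 10 genes mostly follow Ttr. Of these genes, Enpp2 and 1500015O10Rik are in the choroid plexus list. The 5 most like Foxj1 were Fzd7, Wscd1, Tmem176b, H1f0 and P3h3, with r from 0.91 to 0.92.

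Of 42 other choroid plexus genes in the table, 20 averaged 1 FPKM or more. In Mod against Con, 6 of the 20 fell and 1 rose, where 9.81% of all genes in that range were called lower and 23.8% in either direction, and the median difference of the list was −0.32, against 0.01 over all genes. Igfbp2, an IGF-binding protein secreted into the fluid, averaged 7.39 ± 0.885 FPKM in Mod and 12.4 ± 0.862 FPKM in Con (SD, n = 5 and 4), a log2 difference of −0.68 (adjusted p = 0.000792). Enpp2, which encodes autotaxin, averaged 29.5 ± 4.65 FPKM in Mod and 51.8 ± 9.69 FPKM in Con, a difference of −0.79 (adjusted p = 0.013). Atp2b3, a plasma membrane calcium pump that neurons express too, differed by −0.45 (adjusted p = 0.00254). Pcolce2, an enhancer of collagen processing, rose by 0.54 (adjusted p = 0.0169).

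In 6-OHG against Con, 3 of the 20 fell and 1 rose, where 14.4% of all genes in that range were called lower and 30.7% in either direction, with a median of −0.33 for the list. They were Igfbp2 at −0.63 (adjusted p = 0.00137), Cox8b, a subunit of cytochrome c oxidase that reached 1 FPKM only through Con, at −0.94 (adjusted p = 0.0324), 1500015O10Rik at −1.07 (adjusted p = 0.0377) and Pcolce2 at 0.50 (adjusted p = 0.0256). In 6-OHG against Mod, Atp2b3 alone passed, at 0.66 (adjusted p = 0.00123), where 15.3% of all genes in that range were called, and the list's median was 0.03. With 0.1 FPKM as the minimum, all 42 genes were tested. In Mod against Con 7 fell and 2 rose (median −0.20), where 6.52% of all genes were called lower and 16.2% in either direction. In 6-OHG against Con 5 fell and 2 rose (median −0.21), where 9.83% were called lower and 22.2% in either direction. In 6-OHG against Mod 1 rose and none fell, where 8.35% were called in either direction. The 42 genes summed to 106 to 131 FPKM in 6-OHG, 87.4 to 115 FPKM in Mod and 137 to 167 FPKM in Con, and none was at 0 in every library of a group.

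Of 54 other genes of ependyma and motile cilia, 21 averaged 1 FPKM or more. In Mod against Con, 4 rose and none fell, where 14.0% of all genes in that range were called higher, with a median of 0.19 for the list. They were the cilium genes Ccdc39 at 0.29 (adjusted p = 0.00507), Tekt4 at 0.64 (adjusted p = 0.00773), Rsph9 at 0.32 (adjusted p = 0.0212) and Dnah6 at 0.53 (adjusted p = 0.0454). In 6-OHG against Mod, 4 fell and none rose, where 8.35% of all genes in that range were called lower and 6.98% higher, with a median of −0.23: Rsph9 at −0.48 (adjusted p = 0.00458), Ccdc153 at −0.52 (adjusted p = 0.027), Dynlrb2 at −0.71 (adjusted p = 0.043) and Dnaic1 at −0.26 (adjusted p = 0.0462). In 6-OHG against Con, 5 fell and 2 rose, with a median of −0.07 for the list. Of all genes in that range, 14.4% were called lower and 16.3% higher there. The 7 called included Lrrc23 at −0.72 (adjusted p = 0.0023), Dnaic1 at −0.39 (adjusted p = 0.00481), Rsph1 at −0.65 (adjusted p = 0.00949) and Ccdc39 at 0.29 (adjusted p = 0.00604). With 0.1 FPKM as the minimum, 51 genes were tested. In Mod against Con 4 rose and 1 fell (median 0.03), where 16.2% of all genes were called in either direction. In 6-OHG against Mod none rose and 2 fell (median −0.11), where 8.35% were called in either direction. In 6-OHG against Con 4 rose and 9 fell (median −0.09), where 9.83% were called lower and 22.2% in either direction. The 54 genes summed to 46.5 to 59.3 FPKM in 6-OHG, 59.1 to 67.7 FPKM in Mod and 55.7 to 64.8 FPKM in Con. The 3 lowest sums were those of 6-OHG 1, 2 and 3, while 6-OHG 4 at 59.3 FPKM lay inside the range of the other groups.

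**Figure D5:**
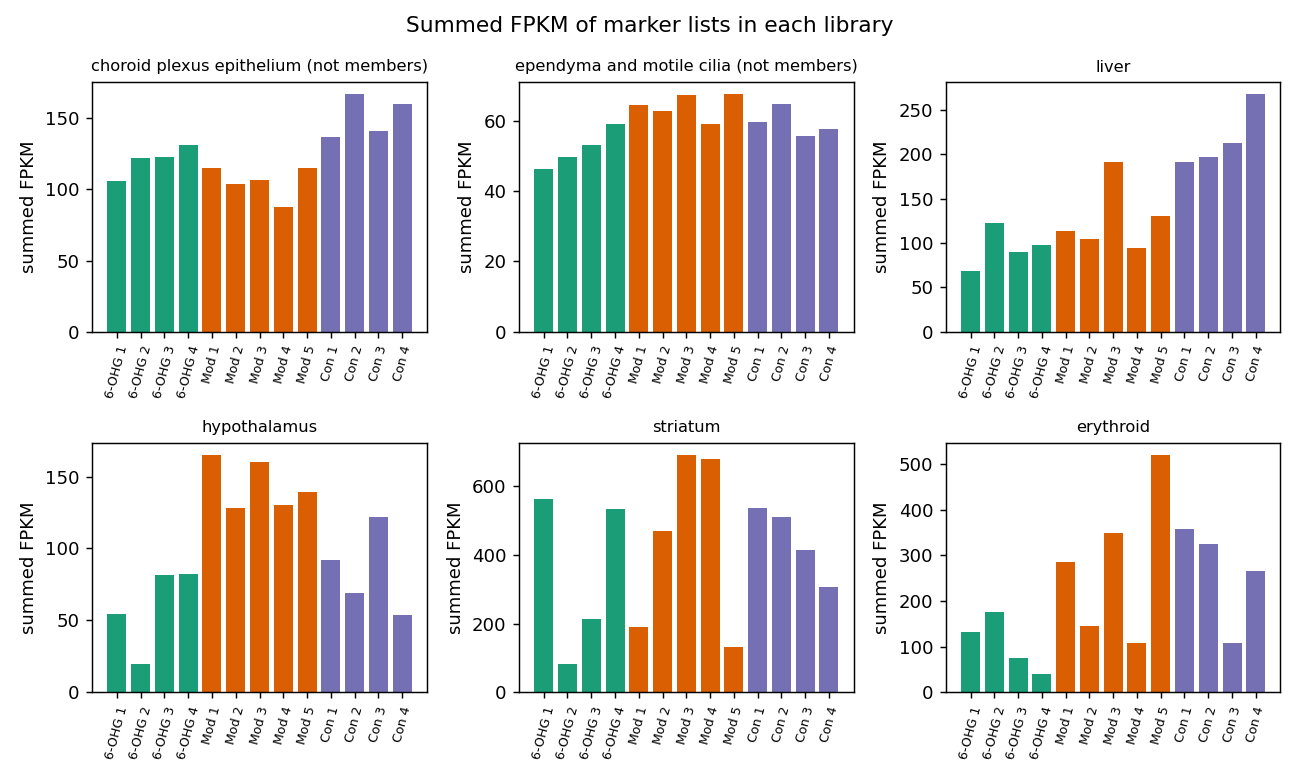
Summed FPKM (bars, linear axes from 0, each panel with its own range) of 6 marker lists in each library, with 6-OHG, Mod and Con libraries from left to right. The sums of liver genes (without Ttr) are highest in the 4 Con libraries and Mod 3, and the sums of hypothalamic genes are highest in the 5 Mod libraries.

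Genes that work with the members were counted from lists, over those that averaged 1 FPKM or more. Of all genes in that range, 9.81% were called lower and 14.0% higher in Mod against Con, 8.35% lower and 6.98% higher in 6-OHG against Mod, and 14.4% lower and 16.3% higher in 6-OHG against Con. With so few genes in a list, its counts are a description beside these shares. Among 17 genes of thyroid hormone and retinol handling, where Ttr acts, 4 fell and 1 rose in Mod against Con, and 4 fell and 2 rose in 6-OHG against Con. Slco1a4 averaged 2.91 ± 0.549 FPKM in Mod and 8.3 ± 0.553 FPKM in Con, a log2 difference of −1.26 (adjusted p = 1.34e-05). It encodes an organic anion transporter of brain endothelium and choroid plexus. It was the 1 gene of the list called between 6-OHG and Mod, at 0.41 (adjusted p = 0.0279). The thyroxine transporter Slco1c1 differed by −0.89 in Mod against Con (adjusted p = 0.00301) and by −0.77 in 6-OHG against Con (adjusted p = 0.00712).

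Among 30 genes of fluid secretion and ion transport, 5 fell and 3 rose in Mod against Con, 1 fell and 6 rose in 6-OHG against Mod, and 4 fell and 4 rose in 6-OHG against Con. The last counts were close to the shares over all genes, 14.4% lower and 16.3% higher. Slc22a8, the organic anion transporter OAT3 of choroid plexus and brain vessels, averaged 1.85 ± 0.175 FPKM in 6-OHG, 2.11 ± 0.521 FPKM in Mod and 4.61 ± 0.247 FPKM in Con (SD, n = 4, 5 and 4). Its differences from Con were −0.98 for 6-OHG (adjusted p = 6.81e-05) and −0.86 for Mod (adjusted p = 0.000102). Carbonic anhydrase 2 (Car2), which oligodendrocytes express too, differed by −0.90 in Mod against Con (adjusted p = 0.00218) and by −1.23 in 6-OHG against Con (adjusted p = 0.000325). The astrocyte and ependymal water channel Aqp4 averaged 9.33 ± 2.69 FPKM in 6-OHG, 8.33 ± 1.37 FPKM in Mod and 16.7 ± 3.16 FPKM in Con. It was called lower in Mod, at −0.92 (adjusted p = 0.00194), and in 6-OHG, at −0.79 (adjusted p = 0.00481), each against Con.

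Among 17 genes of folate handling, where Folr1 acts, 4 rose and 1 fell in Mod against Con, where 14.0% of all genes were called higher. There were 5 that rose and 1 that fell in 6-OHG against Con, where 16.3% were called higher. Slc46a1, the proton-coupled folate transporter, was the 1 that fell, by 0.27 in Mod (adjusted p = 0.0168) and by 0.46 in 6-OHG (adjusted p = 0.000898). The mitochondrial folate enzyme Mthfd1l rose by 0.86 in Mod (adjusted p = 8.4e-05) and by 1.16 in 6-OHG (adjusted p = 1.44e-05). Among 6 genes around klotho and FGF23, Fgfr2, a receptor for fibroblast growth factors, fell by 0.41 (adjusted p = 0.0191) and the sheddase Adam10 fell by 0.18 (adjusted p = 0.0228) in Mod against Con, and none was called in 6-OHG against Con or against Mod. Among 10 genes of prolactin and growth hormone signalling, Stat3 and Ptpn11 rose in both comparisons with Con, by 0.21 and 0.25 in Mod and by 0.26 and 0.31 in 6-OHG. Among 19 partners of Sostdc1 in BMP and WNT signalling, 6 fell and 2 rose in Mod against Con, where 9.81% of all genes were called lower. The median difference of the 19 was 0.03, and with 0.1 FPKM as the minimum 4 of 23 fell. Lrp4, a receptor that binds Sostdc1, fell by 0.52 in Mod (adjusted p = 0.002) and by 0.44 in 6-OHG (adjusted p = 0.00563).

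Promoter sequence could be matched for 4 members in 7 windows of RefSeq (GRCm38.p6), each from 250 bases before to 50 bases after a start. The windows of Kl and Aqp1 are shown because both members were called lower in Mod than in Con, and the first Kcne2 window because Kcne2 and its neighbour Clic6 had the lowest r of the 21 pairs. The 5 motifs below were searched on both strands: TAATCC for OTX2, TGTTTAC for forkhead factors, GTTGCC for the short site of RFX factors, ACGTG for the core of the hypoxia response element and TATAAA for the TATA box. They occur in 7.06%, 3.65%, 12.5%, 19.6% and 13.6% of all 32851 windows. Capitals mark matches, on either strand. The Kl window is chr5:150952357-150952656, the Aqp1 window is chr6:55336049-55336348 and the Kcne2 window is chr16:92292139-92292438, all on the plus strand.
Kl: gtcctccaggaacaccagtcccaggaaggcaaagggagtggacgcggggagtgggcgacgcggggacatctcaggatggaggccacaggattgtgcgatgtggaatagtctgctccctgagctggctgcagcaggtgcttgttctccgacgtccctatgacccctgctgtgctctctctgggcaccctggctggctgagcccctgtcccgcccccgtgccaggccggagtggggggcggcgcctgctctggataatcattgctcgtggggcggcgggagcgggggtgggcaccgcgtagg
Aqp1: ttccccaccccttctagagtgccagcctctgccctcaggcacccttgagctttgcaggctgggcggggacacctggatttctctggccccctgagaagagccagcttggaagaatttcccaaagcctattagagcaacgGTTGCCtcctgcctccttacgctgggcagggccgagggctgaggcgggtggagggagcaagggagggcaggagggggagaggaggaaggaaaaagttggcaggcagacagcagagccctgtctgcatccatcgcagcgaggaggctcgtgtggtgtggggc
Kcne2: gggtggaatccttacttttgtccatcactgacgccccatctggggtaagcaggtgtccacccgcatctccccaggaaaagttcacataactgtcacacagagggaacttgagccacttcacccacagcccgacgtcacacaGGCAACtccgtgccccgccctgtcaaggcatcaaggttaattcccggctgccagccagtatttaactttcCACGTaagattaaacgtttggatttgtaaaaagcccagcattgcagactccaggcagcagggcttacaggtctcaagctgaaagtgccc
The Kl window held none of the 5 motifs. The Aqp1 window held GTTGCC 111 bases before the RefSeq start of the window. That window ends at 55336348, before the gene start of 55336432 given above for Aqp1. The Kcne2 window held the same RFX site on the other strand, as GGCAAC, 109 bases before the start, and the hypoxia core as CACGT 39 bases before it. A match is a description of these letters and not a binding site.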

How the data were processed

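RNA from mouse brain was sequenced as paired reads of 150 bases on an Illumina platform, per the labels' protocols. The values are FPKM per gene, made and deposited by the authors. The submitters' processing notes name HISAT2 2.2.1, featureCounts 1.5.0-p3 and StringTie 2.1.6 among other tools, with the builds GRCm38 and mm10. They do not say which made the FPKM, and the annotation release, the strand setting and the read depth are not given in the sources used here. Low FPKM did not resolve into whole reads, so no interval of counting error is given.

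Gene IDs were matched to symbols for 37499 of 37636 rows. Loci are from GENCODE on GRCm38. A linear model was fitted with limma 3.58.1 (R 4.3.3) to log2(FPKM + 1) with 1 mean per group over all 13 libraries, a variance trend and Benjamini-Hochberg adjustment over all genes tested. The script was tested on simulated data. The main filter was a mean of at least 1 FPKM. A filter at 0.1 FPKM was added so that all 9 members were tested. Alternatives changed the filter, pseudocount, scaling, weights, tissue terms, length and GC trend, replicate block and libraries. The members and lists were chosen with earlier results of these data known. All members are named. From every other list, up to 4 genes are named per comparison, in order of adjusted p among those called.

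Same-numbered libraries did not deviate together, so the numbers do not pair them.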

Additional observations from a re-analysis of the deposited data

Results flagged for a closer look

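Of 27 sets of libraries (9 members in 3 groups), 3 held a library far from the others by Dixon's criterion. For separate sets of normally distributed values, chance gives about 1 in 20. The sets here share libraries and the members vary together, so that rate cannot be set against the 3. Ttr had 43.5 FPKM in Mod 4, against 215 FPKM in the next lowest Mod library. It had 686 FPKM in Con 2, against 330 FPKM in the next highest Con library. Sostdc1 had 4.63 FPKM in Con 2, against 2.08 FPKM in the next highest Con library. The cause was not tested.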

How the results depend on the processing

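Genes called in Mod against Con numbered 3304 with a mean of at least 1 FPKM, and 2061 at 5 FPKM, 2039 with the replicate block, 1393 with the choroid plexus term, 2169 with the ependyma term and 331 with the liver term. In 6-OHG against Mod 2131 genes were called, and 846 with the replicate block, 0 with the ependyma term, 1301 with the liver term and 1012 after a length and GC trend was removed. In 6-OHG against Con 4268 were called, and 2663 at 5 FPKM, 1651 with the choroid plexus term, 1831 with the ependyma term and 111 with the liver term. Leaving out 1 library gave 2382 to 3653, 1357 (without 6-OHG 4) to 2345 and 3427 to 4238 genes in the 3 comparisons. Rescaling to equal sums moved the share of higher calls to 40.7% (main 58.7%) in Mod against Con and to 78.3% (main 45.5%) in 6-OHG against Mod, where quantile normalization gave 57.5%.

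Of the 4 members over 1 FPKM, 1 was called in Mod against Con, 0 in 6-OHG against Mod and 2 in 6-OHG against Con. In Mod against Con the number was 2 of the 9 then tested with no filter, 3 of the 9 at 0.1 FPKM, and 0 at 5 FPKM (which leaves Ttr), with the choroid plexus term or with the liver term. In 6-OHG against Mod it was 1 with library weights, without Con 4 and 6-OHG 2 together, or with the choroid plexus term, and 0 to 1 leaving out 1 library. In 6-OHG against Con it was 0 at 5 FPKM or with the choroid plexus, ependyma or liver term, 1 after the length and GC trend was removed, and 2 to 3 leaving out 1 library. Of all 9 members, 3, 0 and 3 were called. With the choroid plexus term these became 0, 1 and 0, with the liver term 0, 0 and 0, with the Ttr term 1 in 6-OHG against Mod and 0 in 6-OHG against Con, and with the replicate block 1 in each comparison with Con. Leaving out 1 library gave 2 to 3, 0 and 1 (without 6-OHG 1 or Con 2) to 3.

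Differences that did not pass the test changed sign as follows. In Mod minus Con, Clic6 was 0.20 with the liver term and 0.02 with the Ttr term, Prlr was 0.20 with the choroid plexus term and 0.09 with the liver term, and Foxj1 was 0.24 with the choroid plexus term. In 6-OHG minus Mod, Ttr was 3.08 with the ependyma term. Sostdc1 was −0.12 (without 6-OHG 4) to 0.24 leaving out 1 library. Clic6 was −0.54 to 0.08 leaving out 1 library (0.08 without 6-OHG 2) and 0.08 without Con 4 as well, 0.71 with the ependyma term and 0.04 with the Ttr term. Prlr was 0.02 with the liver term and −0.10 to 0.06 (without 6-OHG 1) leaving out 1 library. In 6-OHG minus Con, Clic6 was 0.03 with the ependyma term, 0.07 with the liver term and 0.06 with the Ttr term, and Prlr was 0.15 with the choroid plexus term and 0.12 with the liver term. The cause was not tested. The replicate numbers did not pair the libraries, with correlations of −0.483 to 0.346 between same-numbered libraries. Read depth is unknown, and members near 0.1 FPKM rest on few fragments.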
